A study of Mus musculus with 3 samples.

Results

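Keratins are the filament proteins of epithelial cells, and their genes sit in 2 clusters of the mouse genome. The type I cluster on chromosome 11 holds the acidic keratins together with keratin-associated proteins of the hair, and the type II cluster on chromosome 15 holds the basic keratins. Both clusters were followed here in lamina maps of mouse embryonic fibroblasts. Their members are the measured fragments whose middle lay in the 1050 kb of chromosome 11 from position 99100001 (type I, 2690 fragments) or the 800 kb of chromosome 15 from position 101200001 (type II, 2122 fragments), in mm9 coordinates counted from 1. They make up 4812 of the 6415372 fragments measured. The bounds were set by position and not by any measured value, though the clusters were chosen with earlier results of these data known. A stretch of 500 kb on each side of both clusters is reported apart as flanks.

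The maps were made by DamID, in which a protein fused to the bacterial enzyme Dam methylates GATC sites near it. Wild-type embryonic fibroblasts of strain C57BL/6 were transduced with murine retroviruses carrying Dam-Lamin A, Dam-Lap2b or Dam-only, 1 sample each. Lamin A builds filaments of the nuclear lamina, and Lap2b sits in the inner nuclear membrane and binds lamins. The labels give no promoter for the fusions, and they do not say whether the samples came from separate cultures. The 3 groups share genotype, strain and culture medium (DMEM High with 10% FBS). A profile of log2 values and a list of lamina-associated domains (LADs) were used for each fusion. No file of the Dam-only sample was used, but it is the presumed reference of both profiles. Because each group was 1 sample, differences had no check by replicates and no test was made. Values are given with their SD over 10 kb bins, which are neighbours on a chromosome and not replicates. Over the whole genome each LAD list goes better with the profile of the other label, as values below show, and the labels do not settle whether files were exchanged. Each list and profile is therefore named by its label only, and which protein a value belongs to rests on that label. A value above 0 means more fusion than reference reads after a scaling that the sources used here do not describe. The level of 0 is thus set by that scaling and is not a measured equality of methylation. A value near 0 could come from firm contact in some cells or weak contact in all, which cannot be told apart.

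A type I and a type II keratin pair up to build each filament. Krt5 and Krt14 form the pair of the basal epidermis, Krt1 and Krt10 that of the layers above it, and Krt8 and Krt18 that of simple epithelia such as liver and gut lining. Fibroblasts are mesenchymal cells that build their filaments chiefly from vimentin, and most keratin genes are silent in them. LADs are typically long, gene-poor and silent stretches of chromatin at the nuclear edge, whereas gene-dense stretches mostly lie in the interior.

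By the gene order that RefSeq gives for GRCm38.p6, a later build, the type I cluster runs from Krt222 to Krt42 and holds 27 keratin genes and 23 keratin-associated (Krtap) genes among 76 entries. Inner root sheath keratins (Krt25, Krt26, Krt27, Krt28), which line the growing hair, lie near its first end and are followed by Krt10, Krt12, Krt20 and Krt23. The Krtap genes fill its middle, and hair keratins (Krt33a to Krt36), then Krt13, Krt15, Krt19, Krt9, Krt14, Krt16, Krt17 and Krt42, lie towards its last end. The type II cluster runs from Krt80 to Krt18 and holds 27 keratin genes among 40 entries, 26 of them protein-coding. It starts with Krt80 and Krt7, goes on with hair keratins (Krt81 to Krt87), has Krt75, Krt6b, Krt6a and Krt5 in its middle, then the inner root sheath keratins (Krt71 to Krt74), Krt2, Krt1, Krt77, Krt76 and Krt4, and ends with Krt8 and Krt18. Krt18 is the only type I keratin in the type II cluster. The profiles are on mm9 and hold no gene names, so no gene was placed on a bin and no value below belongs to a named gene. Whether the mm9 bounds of the measured clusters hold just these genes, or all of them, was not checked either.

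Dam can mark a promoter directly only at a GATC, so the 250 bases before the gene starts were searched for it in the RefSeq promoters of GRCm38.p6. Promoters were found for 57 of the 77 keratin and Krtap genes, 41 of 50 in the type I and 16 of 27 in the type II cluster. Only the type I set holds Krtap genes, some of them near-identical copies, so the sets are unlike and their shares are descriptive. At least 1 GATC was present in 13 of 42 type I promoters (31.0%) and 11 of 16 type II promoters (68.8%), against 41.9% of all 32851 promoters. The motif TATAAA, read on both strands, was present in 32 of 42 type I and 5 of 16 type II promoters, against 12.4% of all. The motif TGANTCA, where N is any base and both strands read alike, was present in 7 of the type I promoters and 0 of the type II promoters, against 6.75% of all. The type I promoters had a median GC content of 41.4%, and those of type II and all promoters each had 52.4%. Shown here are the basal pair and the simple epithelial pair, with GATC in capitals, and a Krtap promoter without GATC, with TATAAA in capitals. Each is written 5′ to 3′ along the gene. Their positions are of GRCm38.p6 and must not be set against the mm9 positions of the profiles.
Krt5, chr15:101712906-101713155, minus strand: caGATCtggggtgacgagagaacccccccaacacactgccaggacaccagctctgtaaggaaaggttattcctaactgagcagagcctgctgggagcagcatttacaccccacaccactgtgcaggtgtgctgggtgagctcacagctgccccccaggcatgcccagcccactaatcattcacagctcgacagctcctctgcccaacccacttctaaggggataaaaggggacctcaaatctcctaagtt
Krt14, chr11:100206031-100206280, minus strand: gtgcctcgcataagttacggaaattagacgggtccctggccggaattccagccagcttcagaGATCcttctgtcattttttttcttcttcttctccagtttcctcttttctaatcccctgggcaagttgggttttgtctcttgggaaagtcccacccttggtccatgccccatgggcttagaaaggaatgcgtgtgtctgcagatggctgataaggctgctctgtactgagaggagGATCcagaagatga
Krt8, chr15:102004343-102004592, minus strand: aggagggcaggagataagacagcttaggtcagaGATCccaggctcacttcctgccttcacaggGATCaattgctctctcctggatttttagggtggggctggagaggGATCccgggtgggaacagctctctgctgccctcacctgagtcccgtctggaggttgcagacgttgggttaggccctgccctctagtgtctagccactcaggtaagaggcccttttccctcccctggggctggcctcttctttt
Krt18, chr15:102027966-102028215, plus strand: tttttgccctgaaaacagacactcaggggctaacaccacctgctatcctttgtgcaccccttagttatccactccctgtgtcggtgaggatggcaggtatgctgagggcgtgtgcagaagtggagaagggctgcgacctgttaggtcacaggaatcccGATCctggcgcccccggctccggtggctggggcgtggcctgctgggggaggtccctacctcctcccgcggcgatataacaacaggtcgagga
Krtap3-1, chr11:99566631-99566880, minus strand: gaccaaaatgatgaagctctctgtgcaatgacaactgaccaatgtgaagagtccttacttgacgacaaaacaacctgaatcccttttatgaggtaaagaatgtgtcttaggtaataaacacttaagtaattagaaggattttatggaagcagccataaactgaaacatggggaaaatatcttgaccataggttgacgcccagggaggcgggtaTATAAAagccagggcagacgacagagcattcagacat
In the stretches shown, Krt8 had GATC at positions 34, 64 and 108, Krt14 at 63 and 237, Krt18 at 159 and Krt5 at 3, counted from 1 at the 5′ end, so the number of sites Dam could mark differed between the partners of both pairs.

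On average both clusters were below 0 in both profiles, and above their flanks. The type I cluster averaged −0.12 ± 0.70 (SD, 105 bins) in the Dam-Lamin A profile and −0.31 ± 0.71 in the Dam-Lap2b profile. Its flanks were lower in both. The left flank averaged −1.23 ± 0.57 and −1.79 ± 0.72 (50 bins), and the right flank −1.01 ± 0.49 and −1.88 ± 0.52 (50 bins), in the same order of profiles. The cluster thus lay above its pooled flanks by 1.00 in the Dam-Lamin A profile and by 1.53 in the Dam-Lap2b profile, on the log2 scale. The type II cluster averaged −0.42 ± 0.86 (SD, 80 bins) in the Dam-Lamin A profile and −1.06 ± 0.95 in the Dam-Lap2b profile. Its left flank averaged −0.56 ± 0.77 and −1.28 ± 0.89 (50 bins), close to the cluster, and its right flank −1.34 ± 0.47 and −1.66 ± 0.57 (50 bins). The cluster lay above its pooled flanks by 0.54 and 0.41, most of which came from the right flank. All bins of the genome averaged 0.20 ± 1.31 and 0.29 ± 1.24, so neither cluster reached the genome's mean in either profile. Chromosome 11 averaged −0.08 and −0.23, close to the type I cluster, and chromosome 15 averaged 0.03 and 0.09, above the type II cluster. Bins of the genome in both LAD lists averaged 1.29 in Dam-Lamin A and 1.34 in Dam-Lap2b, and bins in neither list −0.99 and −0.89, so the Dam-Lap2b mean of the type II cluster was below that of unlisted bins.

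The share of bins above 0 was below that of the genome in both clusters and both profiles. In the type I cluster 48 of 105 bins were above 0 in the Dam-Lamin A profile (45.7%, exact Clopper-Pearson 95% interval 36.0 to 55.7%), where 55.2% of all bins and 43.6% of the bins of chromosome 11 were. In the Dam-Lap2b profile 32 bins were above 0 (30.5%, 21.9 to 40.2%), against 59.3% of all bins and 42.2% of the bins of chromosome 11. The type II cluster had 32 of 80 bins above 0 in the Dam-Lamin A profile (40.0%, 29.2 to 51.6%) and 11 in the Dam-Lap2b profile (13.8%, 7.07 to 23.3%). On chromosome 15 as a whole, 50% and 53.1% of bins were above 0. The intervals cover counting error only and treat bins as independent. Neighbouring bins often shared their sign, in runs above 0 of up to 17 bins, so the intervals are likely too narrow. Even so, the type I interval in the Dam-Lamin A profile included the genome's 55.2%. In the Dam-Lamin A profile the type I share was thus near that of its chromosome, while in the Dam-Lap2b profile both clusters had lower shares than their chromosomes. Of the 200 flank bins, 15 were above 0 in the Dam-Lamin A profile and 3 in the Dam-Lap2b profile, and 13 and 3 of these lay in the left flank of the type II cluster.

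**Figure D1:**
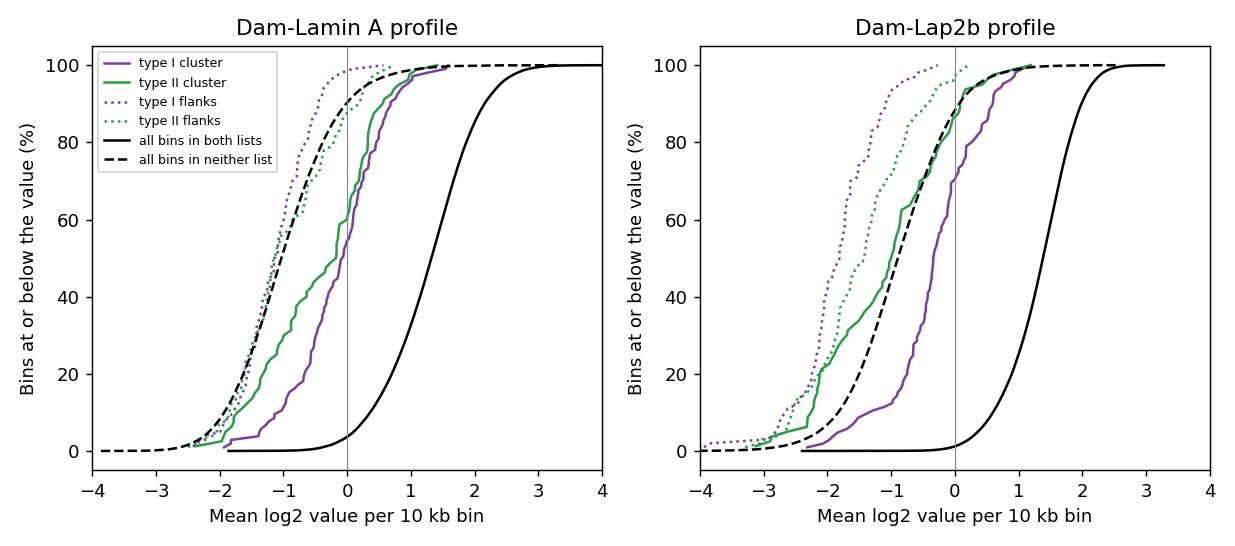
Cumulative share of 10 kb bins (y axis, %) at or below a mean log2 value (x axis), for the Dam-Lamin A profile (left) and the Dam-Lap2b profile (right). Lines show the type I cluster (105 bins), the type II cluster (80 bins), their flanks (100 bins each) and all bins in both or in neither LAD list. The curves of the clusters lie mostly to the right of those of their flanks and far to the left of the curve of bins in both lists.

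Along the type I cluster the values formed a dome. In 50 kb windows counted from the start of the cluster, the Dam-Lamin A profile ranged from −0.82 to 0.82 with a median of −0.12, and 9 of 21 windows were above 0. The Dam-Lap2b profile ranged from −1.64 to 0.69 with a median of −0.30, and 7 of 21 windows were above 0. The stretch from 450 to 800 kb was above 0 in every window of the Dam-Lamin A profile, and in every window but the last of the Dam-Lap2b profile, which was at −0.44. The window from 450 kb stood at 0.68 and 0.69 in the Dam-Lamin A and Dam-Lap2b profiles, and the window from 650 kb at 0.82 and 0.48. Before this dome lay a smaller rise at 250 to 300 kb, with 0.27 and 0.15. After it came a second low stretch, and the window from 950 kb was again above 0 in the Dam-Lamin A profile at 0.17, but not in the Dam-Lap2b profile at −0.32.

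The highest bins of the type I cluster lay within that dome. The bin at chr11:99780001-99790000 had 1.59 in the Dam-Lamin A profile and 1.19 in the Dam-Lap2b profile. The bin at chr11:99740001-99750000 had 1.54 and 1.06, and the bin at chr11:99570001-99580000 had 1.03 and 0.93. By the mean of both profiles, 23.1% of all bins of the genome were at or above the highest of them, so the top of the dome was not unusually high. The lowest bin, which starts at 100140001, was the last bin of the cluster, with −1.82 and −2.32. The next lowest, chr11:99980001-99990000 and chr11:100020001-100030000, also lay in the last part of the cluster.

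**Figure D2:**
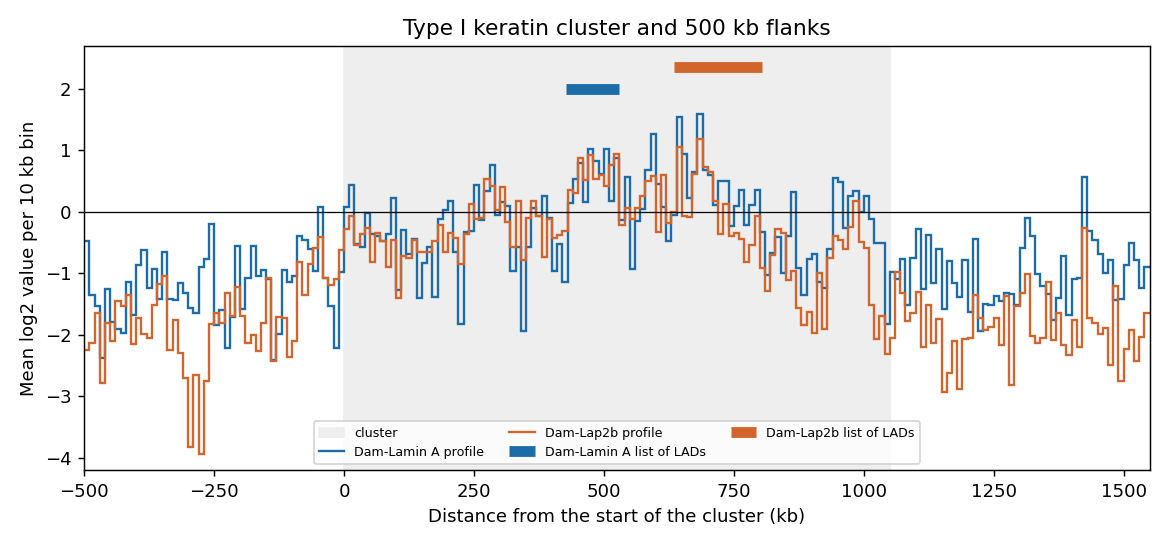
Mean log2 value per 10 kb bin (y axis) against the distance from the start of the type I cluster in kb (x axis), for the Dam-Lamin A and Dam-Lap2b profiles, with the cluster in grey and the listed LADs as bars at the top. Both profiles are above 0 in the middle of the cluster and lie mostly below −1 in the flanks, and the bars of the lists do not overlap.

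Along the type II cluster the values formed a plateau with a steep end. In 50 kb windows the Dam-Lamin A profile ranged from −1.47 to 0.64 with a median of −0.12, and 8 of 16 windows were above 0. The Dam-Lap2b profile ranged from −2.44 to 0.45 with a median of −1.11, and 2 of 16 windows were above 0. The first window stood at −1.29 and −1.93 and the next at −1.24 and −1.86. The window from 250 kb was the highest in both profiles, with 0.64 and 0.45. From 300 to 600 kb the Dam-Lamin A profile stayed between −0.23 and 0.36, while the Dam-Lap2b profile was below 0 throughout, from −1.03 to −0.27. The window from 550 kb had 0.09 and −1.03, and the next had −1.38 and −2.23, so the plateau ended in both profiles at the same place. The last 4 windows of the cluster stayed at or below −1.20 in the Dam-Lamin A profile and at or below −1.49 in the Dam-Lap2b profile.

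The highest bins of the type II cluster were chr15:101480001-101490000, with 1.08 in the Dam-Lamin A and 1.19 in the Dam-Lap2b profile, and its neighbour chr15:101490001-101500000, with 0.96 and 0.89. The bin chr15:101420001-101430000 was the third highest, with 1.42 in the Dam-Lamin A but 0.08 in the Dam-Lap2b profile. The lowest bin, chr15:101810001-101820000, stood just past the end of the plateau, with −2.37 and −2.22, and 99.6% of all bins of the genome were at or above it by the mean of both profiles. The other low bins were chr15:101200001-101210000, at −1.63 and −2.90, and chr15:101930001-101940000, at −1.32 and −3.12.

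**Figure D3:**
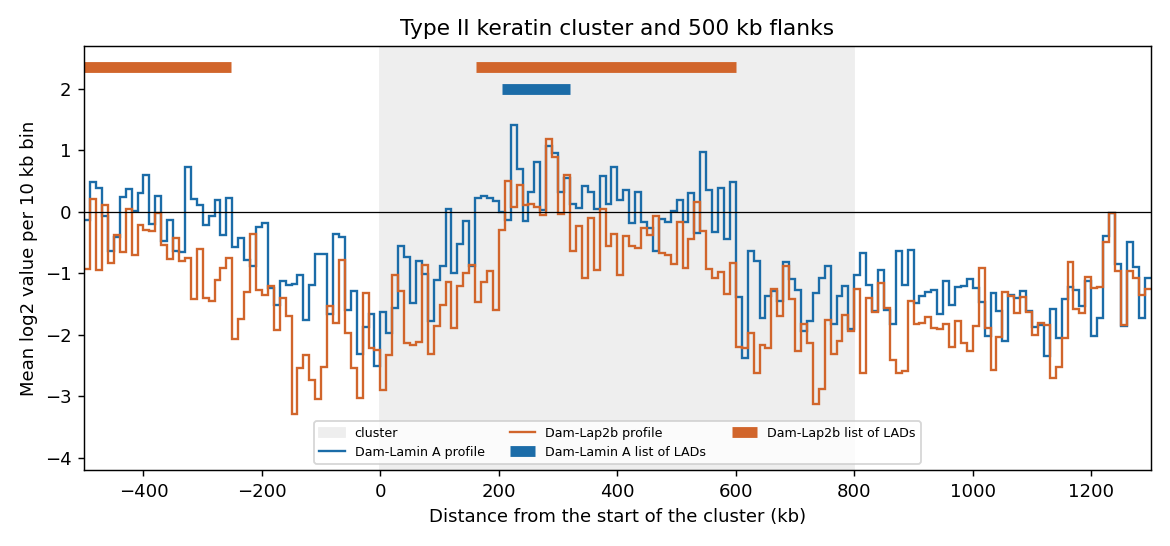
Mean log2 value per 10 kb bin (y axis) against the distance from the start of the type II cluster in kb (x axis), drawn as for the type I cluster. The Dam-Lamin A profile lies around or above 0 from about the start to the end of the long Dam-Lap2b bar and drops at its right end, and the Dam-Lap2b profile is above 0 mainly under the shorter Dam-Lamin A bar.

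The 50 kb windows on either side of the bounds of the clusters were compared next. At the left bound of the type I cluster the 50 kb outside averaged −1.14 in the Dam-Lamin A and −0.88 in the Dam-Lap2b profile, and the 50 kb inside −0.12 and −0.30. At its right bound the 50 kb inside averaged −0.54 and −1.64, and the 50 kb outside −1.02 and −1.55. At the left bound of the type II cluster the values were −1.93 and −2.27 outside and −1.29 and −1.93 inside, and at its right bound −1.43 and −1.96 inside and −1.09 and −1.61 outside. The left bound of the type I cluster thus had the largest change in the Dam-Lamin A profile, and the last window of the type II cluster was lower than the flank window beside it in both profiles.

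The LAD lists covered only part of either cluster. Their LADs lay apart in the type I cluster and were nested in the type II cluster. In the type I cluster the Dam-Lamin A list held 1 LAD, chr11:99528025-99628218, and the Dam-Lap2b list held 1 LAD, chr11:99734004-99904902, and the LADs did not share a base. They covered 9.54% and 16.3% of the cluster. By bins, 10 and 17 of 105 were in the Dam-Lamin A and Dam-Lap2b lists, against 54.6% and 50.5% of all bins and 37.1% and 38.9% of the bins of chromosome 11. The remaining 78 bins were in neither list, as were 42.9% of all bins and 58.3% of the bins of chromosome 11. In the type II cluster the Dam-Lamin A list held chr15:101404565-101519945, which lay wholly inside chr15:101362060-101800345 of the Dam-Lap2b list. They covered 14.4% and 54.8% of the cluster. By bins, 12 and 44 of 80 were listed, against 47.3% and 43.9% of the bins of chromosome 15, and the 12 bins were in both lists, against 47.9% of all bins and 40.4% of chromosome 15. The share in the Dam-Lap2b list was thus near the background and the share in the Dam-Lamin A list was below it. The 36 bins in neither list compare with 49.1% of the bins of chromosome 15. Bins of the Dam-Lap2b list alone numbered 32 of 80 in the type II cluster and 17 of 105 in the type I cluster, against 2.51% of all bins, 3.53% of chromosome 15 and 4.61% of chromosome 11. Bins of the Dam-Lamin A list alone numbered 0 of 80 and 10 of 105, against 6.62% of all bins, 6.92% of chromosome 15 and 2.78% of chromosome 11. No LAD of either list overlapped the flanks of the type I cluster or the right flank of the type II cluster, and 1 LAD of the Dam-Lap2b list, chr15:100630538-100947423, reached into the left flank of the latter.

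These LADs were short or weak among those of their lists. The type I LAD of the Dam-Lamin A list had 100194 bp and was the shortest of the 2159 LADs in that list. The shortest LAD of the Dam-Lap2b list had 100031 bp, so neither list held a LAD under 100 kb. Stretches above 0 that were shorter than this thus had no LAD of their own in either list. The mean of the type I LAD of the Dam-Lamin A list was 0.63 in both profiles. Over all LADs of the list the medians were 0.86 and 0.90 in the Dam-Lamin A and Dam-Lap2b profiles. Among the 652 LADs of the list under 200 kb, 427 had a lower Dam-Lamin A mean and 392 a lower Dam-Lap2b mean, so for its length it was not weak. The type II LAD of the Dam-Lamin A list had 115381 bp, with means of 0.55 and 0.40.

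The LADs of the Dam-Lap2b list in the clusters had means below the median of that list in both profiles. The type I LAD had 170899 bp and averaged 0.53 in the Dam-Lamin A profile but 0.08 in the Dam-Lap2b profile, and 135 of 2374 LADs of the list had a lower Dam-Lap2b mean. The type II LAD had 438286 bp and averaged 0.26 in the Dam-Lamin A profile and −0.40 in the Dam-Lap2b profile, below the median of 1.01 that the list's LADs had in the latter. Only 35 of the 2374 LADs had a lower mean in the Dam-Lap2b profile, and 155 in the Dam-Lamin A profile. In the Dam-Lap2b list 105 of 2374 LADs had a mean below 0 in the profile of their own label, and 13 in the Dam-Lamin A profile. In the Dam-Lamin A list 172 of 2159 LADs had a mean below 0 in the profile of their own label, and 0 in the Dam-Lap2b profile. The LAD in the left flank of the type II cluster also had a mean below 0 in the profile of its own label, at −0.61 in the Dam-Lap2b profile and 0.09 in the Dam-Lamin A profile.

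**Figure D4:**
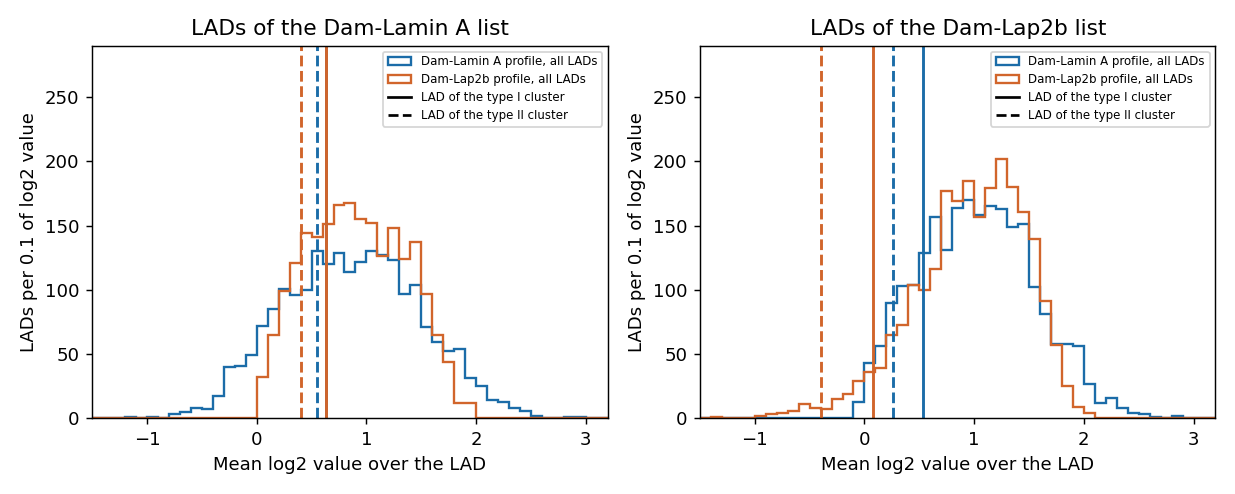
Number of LADs (y axis, per 0.1 of log2 value) by their mean log2 value (x axis) in the Dam-Lamin A and Dam-Lap2b profiles, for the LADs of the Dam-Lamin A list (left) and the Dam-Lap2b list (right). Vertical lines mark the LADs of the type I cluster (solid, 0.63 in both profiles on the left, where the lines coincide) and of the type II cluster (dashed), and the dashed Dam-Lap2b line on the right, at −0.40, lies in the low tail.

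Inside the clusters the bins of the Dam-Lap2b list were on average higher in the Dam-Lamin A profile than in the Dam-Lap2b profile. Over the genome this held for the 6436 bins in the Dam-Lap2b list alone, with 0.37 in the Dam-Lamin A and 0.04 in the Dam-Lap2b profile. Bins found in just the Dam-Lamin A list averaged −0.04 and 0.46. It did not hold for the 122701 bins in both lists, most of the Dam-Lap2b list, which averaged 1.29 and 1.34. In the type I cluster the 10 bins of the Dam-Lamin A list were above 0 in both profiles, with 0.62 ± 0.35 (SD) in Dam-Lamin A and 0.63 ± 0.24 in Dam-Lap2b. The 17 bins of the Dam-Lap2b list averaged 0.46 ± 0.53 in the Dam-Lamin A profile, with 14 above 0, and 0.09 ± 0.58 in the Dam-Lap2b profile, with 8 above 0. In the type II cluster the 12 bins in both lists averaged 0.50 ± 0.51 and 0.30 ± 0.43 in the Dam-Lamin A and Dam-Lap2b profiles. The 32 bins in the Dam-Lap2b list alone averaged 0.13 ± 0.35 in the Dam-Lamin A profile, with 22 above 0, and −0.66 ± 0.44 in the Dam-Lap2b profile, with 2 above 0. The 36 bins in neither list averaged −1.21 ± 0.53 and −1.87 ± 0.59, with 1 and 0 above 0.

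The edges of these LADs often had the larger step in the profile of the other label. An edge step is the mean over 10 kb inside an edge minus that over 10 kb outside. At the start of the type I LAD of the Dam-Lap2b list, the Dam-Lamin A profile went from −0.67 outside to 0.90 inside, while the Dam-Lap2b profile stood at 0.11 outside and 0.00 inside. At the start of the type II LAD of the Dam-Lap2b list the step was 1.03 in the Dam-Lamin A profile and −0.83 in the Dam-Lap2b profile. At the start of the type II LAD of the Dam-Lamin A list it was −0.27 in the Dam-Lamin A profile and 1.80 in the Dam-Lap2b profile. At 8 of the 9 edges in the clusters and flanks the profile of the other label had the larger step, where 78.6% of all edges of both lists did. These were 3 of 4 edges of the Dam-Lamin A list, against 62.3% of all its edges, and 5 of 5 of the Dam-Lap2b list, against 93.4%. The exception was the start of the type I LAD of the Dam-Lamin A list, with 1.50 in the Dam-Lamin A and 1.23 in the Dam-Lap2b profile. The shares in these regions were thus near those of the whole genome. The largest step of the 9 was at the end of the type II plateau, position 101800345, with 2.05 in the Dam-Lamin A profile, from 0.53 inside to −1.51 outside, and 1.44 in the Dam-Lap2b profile, from −0.80 to −2.24.

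Between the profiles, Dam-Lamin A was the higher in most of the sequence. Subtracting the Dam-Lap2b from the Dam-Lamin A value gave a mean difference of 0.19 ± 0.53 (SD over bins) in the type I cluster and 0.64 ± 0.59 in the type II cluster, against −0.09 ± 0.63 over all bins. Chromosome 11 had a mean difference of 0.15 ± 0.68, near that of the type I cluster, and chromosome 15 had −0.06 ± 0.66. Dam-Lamin A was the higher in 67 of 105 and 68 of 80 bins, against 44.2% of all bins, 57.9% of the bins of chromosome 11 and 44.4% of those of chromosome 15. It was also the higher in 38 and 46 of the 50 bins of the left and right flank of the type I cluster and in 42 and 38 of the 50 bins of those of the type II cluster, so most flank bins had the same direction. The type I difference was 0.0042 when fragments were weighted by their length, and its sign turned with fragment length. Fragments under 200 bp of the type I cluster differed by 0.40, those of 200 to 1000 bp by 0.20 and those over 1000 bp by −0.40. In the type II cluster the same classes differed by 0.73, 0.58 and 0.71. Over all fragments of the genome they differed by 0.23, −0.11 and −0.82.

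The 3 bins of each cluster in which Dam-Lamin A lay furthest above Dam-Lap2b were not among its 3 highest bins. In the type I cluster they lay near its last end, led by chr11:100120001-100130000, with −0.51 in Dam-Lamin A and −2.07 in Dam-Lap2b. In the type II cluster they lay past the plateau, led by chr15:101830001-101840000, with −0.80 and −2.62. Near-tied with them was chr15:101390001-101400000, inside the Dam-Lap2b LAD, with 0.18 and −1.60, so this location depends on where the ranking is cut. In the opposite direction, chr11:99440001-99450000 had −1.93 in Dam-Lamin A and −0.78 in Dam-Lap2b, and chr15:101410001-101420000 had −0.13 and 0.50. The profiles also differed in sign. Bins above 0 in Dam-Lamin A alone numbered 21 of 105 in the type I cluster and 24 of 80 in the type II cluster, against 2.83% of all bins, 4.73% of chromosome 11 and 3.76% of chromosome 15. Bins above 0 in Dam-Lap2b alone numbered 5 and 3, against 6.89% of all bins, 3.34% of chromosome 11 and 6.9% of chromosome 15. Bins above 0 in both numbered 27 and 8, against 52.4% of all bins, 38.9% of chromosome 11 and 46.2% of chromosome 15. Across bins Pearson's r between the profiles was 0.71 in the type I cluster (105 bins) and 0.79 in the type II cluster (80 bins), and 0.88 over all bins, where all points share the presumed reference and their neighbours.

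The depth behind these values, and what the shapes consist of, was read from whole reads recovered from the log2 values. These reads are lower bounds. The median fragment held 9 reads in Dam-Lamin A, 7 in Dam-Lap2b and 10 in the presumed reference in the type I cluster, and 14, 8 and 18 in the type II cluster. A 10 kb bin held at least 13 fragments in the type I and 14 in the type II cluster, with at least 161 and 186 reads of each library. Fragments recovered at 0 in all 3 libraries made up 3.05% of the type I and 2.03% of the type II cluster, against 2.75% of all. The Krtap genes are near-identical copies in part, and how reads that fit several copies were treated is not given in the sources used here.

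The reference varied more along both regions than the fusions did, with an SD of log2 reads per bin of 1.00 in the type I region, against 0.69 and 0.70 for the Dam-Lamin A and Dam-Lap2b libraries, and of 1.12 against 0.74 and 0.71 in the type II region. In the type I region the median 10 kb bin of the listed LADs (27 bins) held 565 reads of Dam-Lamin A, 503 of Dam-Lap2b and 405 of the reference. The median bin of the cluster in neither list (78 bins) held 455, 422.5 and 596.5, and the median flank bin (100 bins) held 530.5, 294 and 1181. The flanks thus had 0.94 times the Dam-Lamin A reads, 0.58 times the Dam-Lap2b reads and 2.92 times the reference reads of the listed bins. In the type II region the median listed bin (44 bins) held 840 reads of Dam-Lamin A, 449 of Dam-Lap2b and 642.5 of the reference, and the median bin of the cluster in neither list (36 bins) held 815.5, 499.5 and 2291. The median flank bin there (100 bins) held 562.5, 421.5 and 1224.5, which is 0.67, 0.94 and 1.91 times the listed bins, so Dam-Lamin A reads were also lower in those flanks. At the end of the type II plateau, the reference went from 5607 reads in the last 50 kb window of the plateau to 22020 in the next, while Dam-Lamin A went from 5004 to 8001 and Dam-Lap2b from 2188 to 2986. Across the bins of clusters and flanks the Dam-Lamin A value correlated with the log2 of its own reads with r = 0.10 in the type I region (205 bins) and 0.02 in the type II region (180 bins), and with those of the reference with r = −0.72 and −0.75. With the Dam-Lap2b profile r was 0.47 and 0.00 with its own reads and −0.80 and −0.80 with those of the reference. Over all bins of the genome, r with own reads was 0.51 in the Dam-Lamin A profile and 0.50 in the Dam-Lap2b profile, and r with the reference was −0.75 and −0.82. The SD of log2 reads over all bins was 1.21 in the reference, 0.88 in Dam-Lamin A and 0.77 in Dam-Lap2b, so the wider spread and the negative r of the reference were also found over the genome. The reference reads are the denominator of the value, which by itself makes these correlations negative, and the lists presumably rest on the same ratios, so this is a description of what the domes are made of.

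**Figure D5:**
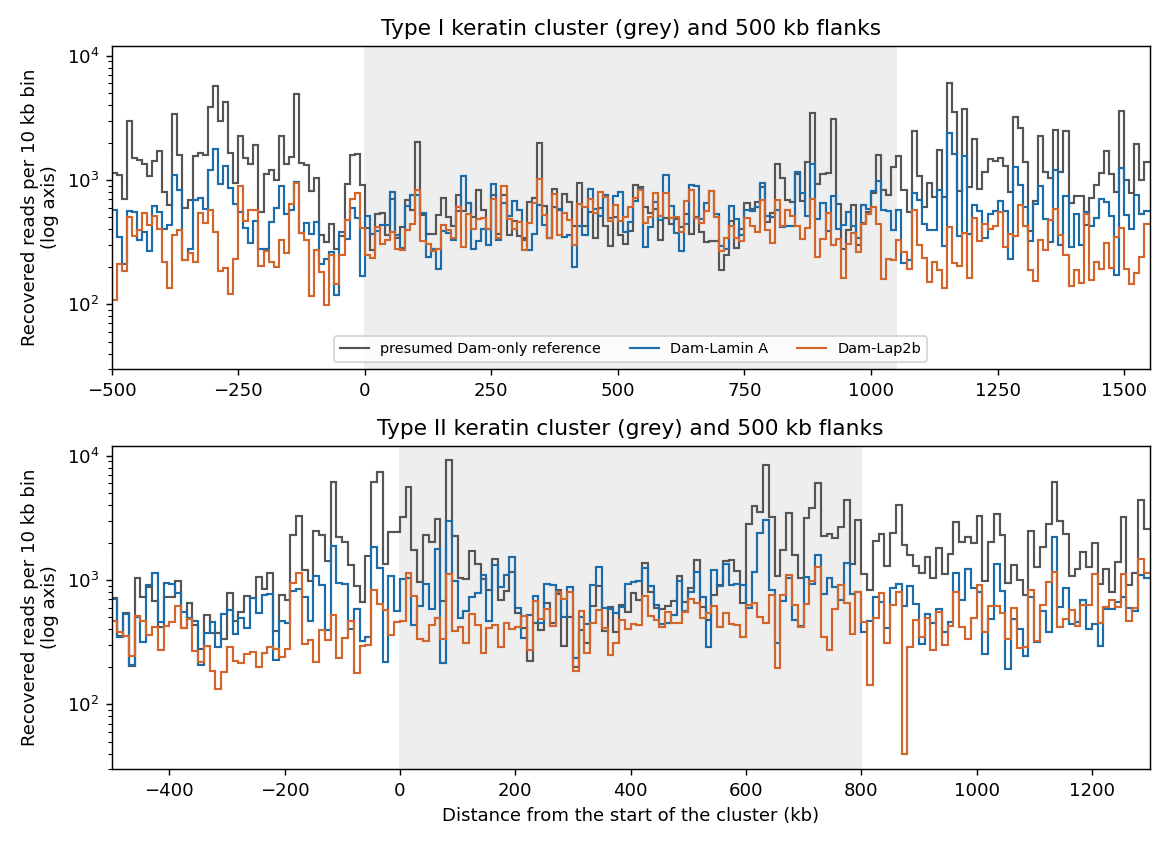
Recovered reads per 10 kb bin (y axis, log scale) against the distance from the start of the cluster in kb (x axis), for the presumed Dam-only reference, Dam-Lamin A and Dam-Lap2b, with the type I cluster above and the type II cluster below (grey). In the middle of both clusters the reference is at about the level of the fusions, and in the type I flanks, the right flank of the type II cluster and the end of the type II cluster it lies mostly above them, but not in the outer part of the type II left flank.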

How the data were processed

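DamID was measured in 3 samples of mouse embryonic fibroblasts, 1 each for Dam-Lamin A, Dam-Lap2b and Dam-only, as their labels group them. A separate file of the Dam-only sample was not used here. Reads were aligned with Bowtie to mm9, per the submitters' processing notes; the version, counting, normalization and domain caller are not given in the sources used here. Profile values are log2 values as deposited by the authors. The LAD lists give positions. Profiles were averaged over fragments in 10 kb bins with at least 5 fragments, by fragment middle, and a bin was in a LAD when its middle was.

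The deposited values have the form of a constant (0.0846 for Dam-Lamin A, 0.0222 for Dam-Lap2b) plus log2((fusion reads + 1)/(reference reads + 1)). The smallest whole numbers, with a denominator up to 5000, that gave both values were used as reads. This succeeded for 99.997% of fragments. On 295448 simulated fragments 84.5% were recovered exactly and 0% came out too high. That the reference is the Dam-only sample is presumed. Python 3.11.15 with numpy 2.4.6, pandas 2.3.3, scipy 1.17.1 and numba 0.67.0 was used. Alternatives changed the bin size, the summary, the fragments used, the bounds, the threshold and LAD merging. The regions named are every LAD near a cluster, and the 3 highest, lowest and most different bins of each cluster or the leading ones among them. The clusters, gene lists and rules were chosen with earlier results of these data known. Gene names, order and promoters came from RefSeq for GRCm38.p6, which was not converted to mm9. No count test was run.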

Additional observations from a re-analysis of the deposited data

How the results depend on the processing

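Of 106 recomputed values, 101 stayed within the 95% interval over bins of the value reported and 5 did not, and none of the means or differences changed sign. Some of the 101 could not move. Asking for at least 10 fragments changed nothing because every bin of the clusters held at least 13. Merging LADs across gaps under 25 kb left every LAD share as it was. The interval is also wide. With 5 kb bins the type II share above 0 in the Dam-Lamin A profile was 32.1%, against 40%, and counted as within it. With a threshold of 0.5 in place of 0, the bins above it were 18.1% (Dam-Lamin A) and 15.2% (Dam-Lap2b) in the type I cluster and 11.3% and 5% in the type II cluster. Weighting fragments by length moved the type I difference between profiles to 0.0042, and the cause was not tested. The other alternatives kept the type I difference between 0.14 and 0.25 and the type II difference between 0.56 and 0.72. The LAD shares ranged from 9.52 to 10.5% and 16.2 to 18.0% in the type I cluster, and from 14.4 to 16.5% and 54.8 to 62.6% in the type II cluster, in the Dam-Lamin A and Dam-Lap2b lists. The ratio of summed reads was chosen after seeing the data. No paired analysis was possible because each group had 1 sample. With 1 library per fusion, no spread between cell preparations could be measured.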
